A study of Mus musculus with 24 samples.

Results

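Pim1, Pim2, Pim3, Cish, Socs1, Socs2, Socs3 and Myc are genes that cytokines switch on in lymphocytes, and their mRNA was followed here in natural killer (NK) cells of mice with and without a lymphoma. The 8 genes were chosen by name, with earlier results of these data known. They are 8 of 45237 genes listed in the count table, and were all among the 17097 genes with enough counts to be tested. The study asked how NK cells change while a tumor grows. Wild-type C57BL/6J mice, female unless specified, received RMA or RMA-KR cells by intravenous injection, and control mice carried no tumor. RMA is a mouse T lymphoma line that does not directly stimulate NK cells, though the study reported activated NK cells during growth of either tumor. RMA-KR was derived from RMA by knocking out B2m, which removes MHC class I, and by transducing Rae1-β, a ligand of the activating receptor NKG2D. The study reports ZsGreen in both lines, and its methods describe subcloning after the ZsGreen vector, with or without Rae1-β, was added. Limiting dilution is stated for RMA-KR, so that line is a clone. NK cells were sorted from spleen as cells positive for NK1.1 or NKp46 and negative for CD3, CD5 and TCR, and their RNA was sequenced in bulk. There were 4 control libraries, 3 each from RMA day 2, day 4 and day 9, 3 from RMA-KR day 2, 5 from RMA-KR day 7 and 3 from RMA-KR day 14. The days after injection differed between the lines beyond day 2, so tumor line and day cannot be told apart in the later comparisons.

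Cytokines such as IL-2, IL-15 and IL-12 act on NK cells through JAK kinases, which phosphorylate STAT transcription factors, and IL-15 signaling through STAT5 keeps NK cells alive. PIM1, PIM2 and PIM3 are serine/threonine kinases that need no activation step beyond their own synthesis, so their activity follows the amount made, and they favor survival and protein synthesis. CIS, encoded by Cish, and SOCS1, SOCS2 and SOCS3 are made in response to STAT activity and dampen it in turn, with CIS a brake on IL-15 signaling in NK cells. MYC is a transcription factor that pairs with MAX and drives ribosome production, metabolism and growth.

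Each library held 5138651 to 14863500 counts, with a median of 10489204. Levels are given as normalized CPM, a gene's counts relative to the scaled total of its library. 4 libraries stood apart from the rest. The summed level of 30 immediate early genes, which respond within minutes to stimulation or handling, was 3850 in control replicate 4 and 3292, 3628 and 3521 in RMA-KR day 7 replicates 3, 4 and 5. In the other 20 libraries this sum ran from 9153 to 20062. The same 4 libraries had 24621 to 27820 genes with at least 1 count, against 15263 to 24234 in the other 20. A fit without them, chosen after seeing the data, is given where it altered a call named below.

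The NK label was held against marker genes fixed for 7 cell types. The NK list summed to 22609 to 41992 normalized CPM per library, with Gzma the most abundant gene. The 4 libraries low in immediate early genes had the lowest Gzma, 4445 to 6066 against 7779 to 16442 in the others, and the 3 of RMA-KR day 7 had the lowest NK sums, 22609 to 24005. T cell and RMA markers summed to 498 to 880, carried by Trbc1, Trbc2, Cd28 and Lef1, with Cd3e, Cd4, Cd8a, Cd5 and Cd6 near 0. The T cell and RMA sum was 537 to 667 in control (mean 589), 498 to 549 in RMA day 4, 690 to 833 in RMA day 9 (mean 746), and had means of 770, 633 and 720 in RMA-KR day 2, 7 and 14. Thy1 of this list was called higher in RMA day 9 against RMA day 2 (log2 fold change 1.73, SE 0.45, edgeR adjusted p = 0.0392). B and plasma cell markers summed to 218 to 625, carried by Ighm, with Ms4a1 and Pax5 near 0. Their sum was 244 to 429 in control (mean 326) and 443 to 625 in RMA-KR day 14 (mean 522), where Igkc ran from 1.25 to 134 and was not called (log2 fold change 4.76, SE 1.41, edgeR adjusted p = 0.116). Of the 11 markers of this list tested, 8 were lower than control at each RMA day. The medians there were -1.08, -1.38 and -1.11 at day 2, 4 and 9. With RMA-KR, 7, 6 and 7 were higher at day 2, 7 and 14, with medians of 0.23, 0.08 and 0.64. Against control, edgeR called 0 of them. Macrophage and monocyte markers summed to 147 to 589, carried by Ly6c2, which is also found in NK cells, in 23 of 24 libraries and by Cd68 in RMA-KR day 14 replicate 1, with Adgre1, C1qa and Fcgr1 near 0. By group mean this sum was 462 in control, 244 in RMA day 9 and 174 in RMA-KR day 14, where Ly6c2 was called lower (log2 fold change -1.14 and -2.02, edgeR adjusted p = 0.0308 and 0.00113). Of the 5 markers of this list tested, 4 were higher than control at RMA day 9 and 3 at RMA-KR day 14. Their medians were 0.91 and 2.38, beside -0.18 for both over all genes, and edgeR called 0 of them higher. Dendritic cell markers summed to 390 to 1127, carried by Itgax, with Clec9a, Xcr1 and Flt3 near 0, and the mean was 531 in control and 863 in both RMA day 4 and RMA-KR day 14. Itgax was not called there (log2 fold change 0.71 and 0.72, edgeR adjusted p = 0.116 and 0.145). Of the 5 dendritic cell markers tested, 3 were higher than control at RMA day 4 (median 0.54) and 2 at RMA-KR day 14 (median -0.11). Granulocyte markers did not pass 17.2 and red blood cell markers 16.8. Among sorted cells in bulk, a change in the share of cells that express a gene and a change of its RNA per cell cannot be told apart.

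Pim2 and Myc were the only members of the 8 that were called changed in any comparison. A gene was called changed when its fold change was above 2 and edgeR's quasi-likelihood test put its p, adjusted over all genes tested, under 0.05. Against control, 2 of 8 were called at RMA day 4 (Pim2, Myc), 1 at RMA day 9 (Pim2), 1 at RMA-KR day 7 (Pim2) and 2 at RMA-KR day 14 (Pim2, Myc), each of them higher. Over all genes tested, 1.65%, 1.79%, 0.0175% and 0.983% were called in those comparisons. At day 2 edgeR called 0 of 8 with either tumor, where 0% (RMA) and 0.0819% (RMA-KR) of all genes were called. The members with an unadjusted p under 0.05 numbered 0 at RMA day 2 and 2 at RMA-KR day 2, and both DESeq2 settings also called 0. Over all genes at RMA day 2, 1204 had an unadjusted p under 0.05, and DESeq2 called 62 with its defaults and 19 with betaPrior=TRUE. The 6 comparisons share the 4 control libraries.

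Counting instead genes whose libraries did not overlap between the groups, 3 of 8 were apart from control at RMA day 4 and at RMA day 9 (Pim2, Socs1 and Myc, all higher). The share of all genes apart in either direction was 20.7% and 18%. At RMA-KR day 2 it was 2 of 8 (Cish lower, Myc higher) beside 10.5% of all genes, at RMA-KR day 7 it was 1 (Pim2) beside 2.63%, and at RMA-KR day 14 it was 2 (Pim2, Myc) beside 13.6%. RMA day 2 had 0 of 8 apart, beside 7.05%. The median log2 fold change of the 8 genes was 0.24, 0.63 and 0.18 at RMA day 2, 4 and 9, and that of all genes tested was -0.06, -0.29 and -0.18. With RMA-KR the medians were 0.08, 0.29 and 0.11 at day 2, 7 and 14, beside 0.00, 0.01 and -0.18 over all genes.

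**Figure D1:**
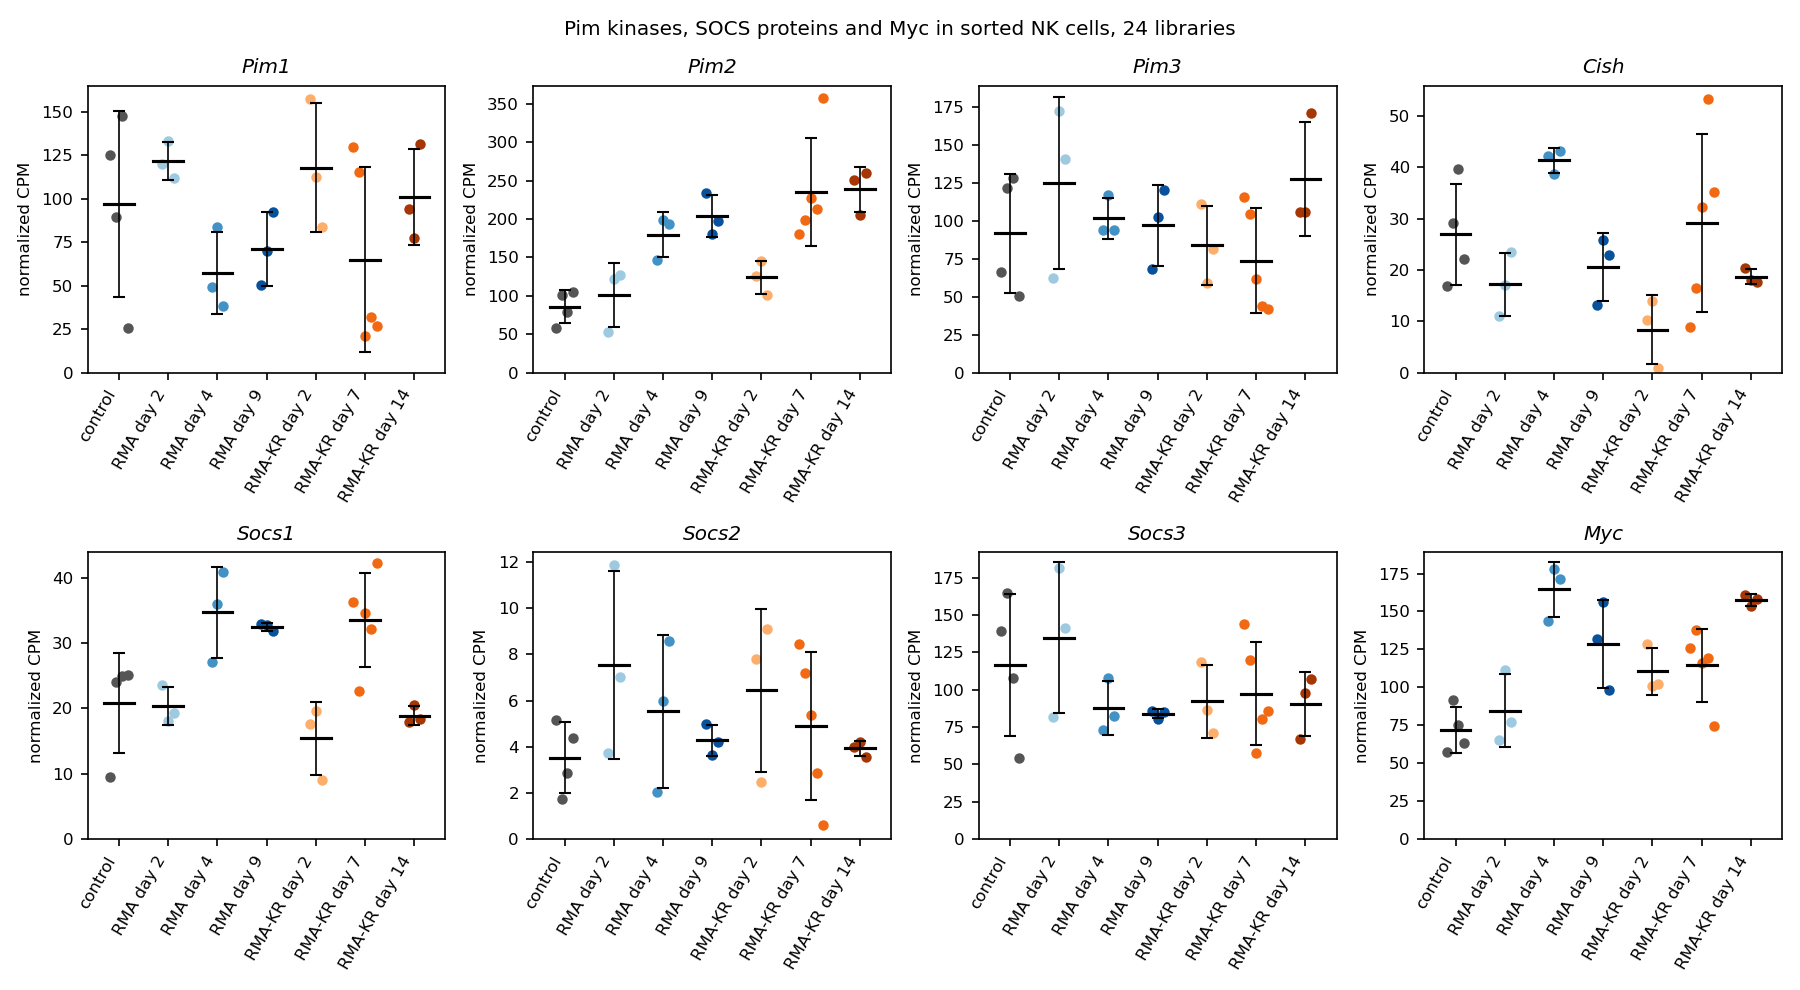
Normalized CPM (counts relative to the scaled library total) of the 8 genes in each of the 24 libraries, by group. Each point is a library, the horizontal line is the group mean and the bar is the SD. Pim2 was 85.5 in control and 239 in RMA-KR day 14, and Myc was 71.8 in control and 164 in RMA day 4.

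Among the Pim kinases, Pim2 stood higher from day 4 on with RMA and from day 7 on with RMA-KR. Its gene lies on the X chromosome (7878262 to 7883432, forward strand, mm10). Control libraries read 58.2, 101, 79.2 and 104 normalized CPM, and RMA day 2 libraries read 53.2, 122 and 128. These groups overlapped. RMA day 4 gave 146, 198 and 194, and RMA day 9 gave 233, 181 and 197. All 6 of these libraries were above the highest control and the highest day 2 library of the same tumor. In RMA-KR bearing mice the values were 126, 145 and 101 at day 2, 180, 198, 227, 213 and 358 at day 7, and 251, 205 and 260 at day 14. The day 7 and day 14 libraries all lay above the 4 controls, and replicate 5 of day 7 was the highest of the 24. By mean, the groups ran from control (85.5 ± 21.3, SD, n = 4) through RMA day 2 (101 ± 41.4, n = 3), RMA-KR day 2 (124 ± 21.7, n = 3), RMA day 4 (180 ± 28.8, n = 3), RMA day 9 (204 ± 27.0, n = 3) and RMA-KR day 7 (235 ± 70.8, n = 5) to RMA-KR day 14 (239 ± 29.4, n = 3). The only neighbours in that order whose libraries did not overlap were RMA-KR day 2 and RMA day 4.

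Pim2 rose by a log2 fold change of 1.07 at RMA day 4 (SE 0.26, edgeR adjusted p = 0.0284) and of 1.25 at RMA day 9 (SE 0.26, edgeR adjusted p = 0.0089), in 3 of 3 libraries each. The day 4 call rested on most of its libraries. It was lost without control replicate 1, 2, 3 or 4 (log2 fold change 0.89, 1.12, 1.00 and 1.14, edgeR adjusted p = 0.135, 0.0518, 0.0987 and 0.0517) and without RMA day 4 replicate 2 or 3 (1.03 and 1.04, edgeR adjusted p = 0.104 and 0.106). The day 9 call was lost without RMA day 9 replicate 1 (1.17, edgeR adjusted p = 0.0553).

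With RMA-KR, Pim2 rose by 1.46 on the log2 scale at day 7 (SE 0.24, 5 of 5 libraries, edgeR adjusted p = 0.0337) and by 1.48 at day 14 (SE 0.27, 3 of 3 libraries, edgeR adjusted p = 0.00482). The day 14 call was kept without any single library of either group, with log2 fold changes of 1.33 to 1.61. At day 7 Pim2 ranked 2 by p among all genes and was 1 of the 3 genes called, beside Serpine2 and Tnfrsf9, the latter also in the list of STAT5 targets. Naming Serpine2 was a choice made after its value was seen. The day 7 call was lost without each of the 4 controls (log2 fold change 1.32, 1.54, 1.42 and 1.56, edgeR adjusted p = 0.366, 0.104, 0.155 and 0.0804 for replicates 1 to 4). It was also lost without RMA-KR day 7 replicate 1, 3, 4 or 5 (1.53, 1.47, 1.49 and 1.25, edgeR adjusted p = 0.0674, 0.0949, 0.0688 and 0.142). Without the 4 libraries low in immediate early genes, Pim2 at day 7 had a log2 fold change of 1.27 (edgeR adjusted p = 0.733), with replicates 1 and 2 at 180 and 198 against controls at 58.2 to 101. DESeq2 with its defaults gave Pim2 an adjusted p of 7.58e-06 at day 7. Of the 9 settings other than leaving out 1 library, 4 ended the day 7 call. They were only the libraries compared, a replicate block, the fit without the 4 low libraries and the immediate early sum as a covariate. Over the 9 settings the log2 fold change ran from 1.27 to 1.48.

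Pim1 and Pim3 were not called in any of the 11 comparisons, and Pim1 followed the immediate early sum. Pim1 read 125, 89.7, 148 and 25.4 in control and 130, 116, 21.2, 31.8 and 26.9 in RMA-KR day 7, so that a single group spanned most of the range of the 24 libraries. The 4 lowest libraries were the 4 low in immediate early genes. Its group means ran from 57.3 in RMA day 4 through 65.1 in RMA-KR day 7, 71.1 in RMA day 9, 97.1 in control, 101 in RMA-KR day 14 and 118 in RMA-KR day 2 to 122 in RMA day 2, and all neighbours overlapped. Within the 20 other libraries, Pearson's r between log2 Pim1 and the log2 immediate early sum was 0.85 (n = 20, Spearman's rho 0.89), and it was 0.94 without the 2 libraries farthest from the median sum. Pim1 is not in the list of 30 genes. Its largest fold change against control was -0.76 at RMA day 4 on the log2 scale (SE 0.55, edgeR adjusted p = 0.501), where the immediate early sums were 10483, 9724 and 10427. With the immediate early sum as a covariate, a fit chosen after seeing the data, Pim1 had a slope of 0.95 on the log2 scale per doubling of the sum (SE 0.10, edgeR adjusted p = 2.77e-06), and its fold change at RMA day 4 was -0.32 (edgeR adjusted p = 0.538). Without the 4 low libraries that fold change was -1.08 (edgeR adjusted p = 0.1004). In the covariate fit the slope of Pim3 was 0.51 (edgeR adjusted p = 0.0261), that of Socs3 0.43 (edgeR adjusted p = 0.0499), that of Pim2 -0.17 (edgeR adjusted p = 0.529) and that of Myc 0.13 (edgeR adjusted p = 0.6002), and 0.959% of all genes passed. RMA day 9 and RMA day 2 did not overlap for Pim1 (50.5 to 92.7 against 112 to 134), with a log2 fold change of -0.78 (SE 0.58, edgeR adjusted p = 0.515), which was -0.21 with the covariate. At RMA-KR day 7 against control, Pim1 had -0.57 and Pim3 -0.32, and these were 0.04 and 0.08 without the 4 low libraries, so the low means of that group rest on them.

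Pim3 ran from 42.0 to 172 normalized CPM over the 24 libraries, with group means from 73.5 in RMA-KR day 7 to 127 in RMA-KR day 14. The means in between were 83.6 in RMA-KR day 2, 91.6 in control, 96.7 in RMA day 9, 102 in RMA day 4 and 125 in RMA day 2, and all neighbours overlapped. Its r with the immediate early sum was 0.30 within the 20 libraries (rho 0.41), and the 4 low libraries read 42.0 to 61.8. The counting method is given without a strand setting in the sources used here. Pim1 shares 488 exon bases, 14.5% of its exon length, with the antisense gene Gm26885, and reads of the pair there cannot be told apart without strand.

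**Figure D2:**
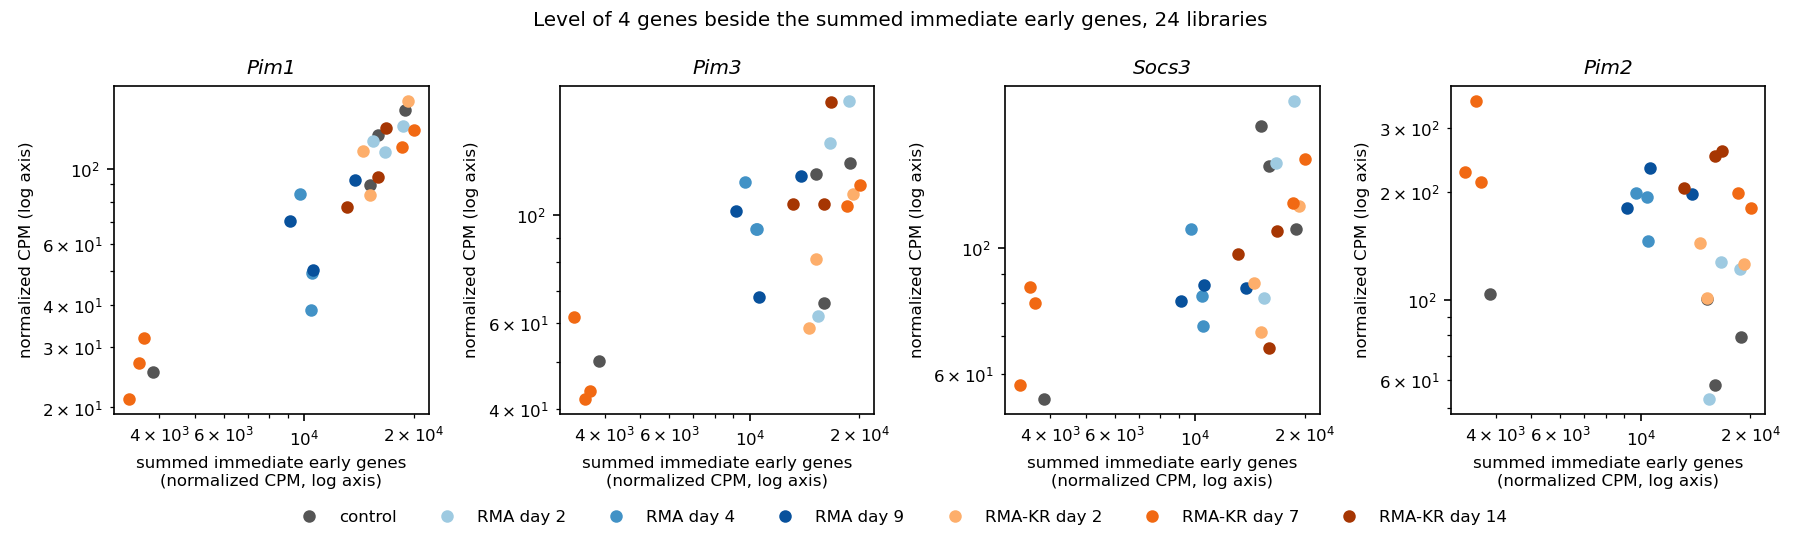
Normalized CPM of Pim1, Pim3, Socs3 and Pim2 (vertical, log axis) against the summed normalized CPM of the 30 immediate early genes (horizontal, log axis), 1 point per library, colored by group. The 4 libraries with sums of 3292 to 3850 read 21.2 to 31.8 for Pim1, below the 38.5 to 158 of the other 20 libraries, while they read 104 to 358 for Pim2.

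Promoter sequence is shown for 4 start sites because Pim2 was called and Pim1, Socs1 and Socs3, which are also STAT targets, were not. RefSeq promoter entries (GRCm38.p6) were matched for 6 of the 8 genes and 7 start sites, Pim1 having 2. Socs2 and Myc are named only. The 250 bases before each start were searched on both strands for TTCNNNGAA, the motif that STAT5 and other STAT factors recognize, and for CACGTG, the E-box that MYC with MAX recognizes. TTCNNNGAA was found in 7.02% and CACGTG in 6.02% of 32851 promoters. Bases that are not in an annotated exon are printed 5′ to 3′ on the gene's strand, with matches in capitals. They are chrX:7878056-7878261 (Pim2, forward), chr17:29492835-29493036 (second start of Pim1, forward), chr16:10785537-10785786 (Socs1, reverse) and chr11:117969452-117969616 (Socs3, reverse).
Pim2: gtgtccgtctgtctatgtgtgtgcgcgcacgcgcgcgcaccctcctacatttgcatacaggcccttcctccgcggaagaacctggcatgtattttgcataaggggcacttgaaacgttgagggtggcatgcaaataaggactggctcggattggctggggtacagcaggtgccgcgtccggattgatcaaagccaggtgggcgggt
Pim1, second start: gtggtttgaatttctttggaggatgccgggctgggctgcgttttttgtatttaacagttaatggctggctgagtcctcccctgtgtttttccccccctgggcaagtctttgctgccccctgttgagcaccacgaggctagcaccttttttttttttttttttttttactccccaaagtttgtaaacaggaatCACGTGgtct
Socs1: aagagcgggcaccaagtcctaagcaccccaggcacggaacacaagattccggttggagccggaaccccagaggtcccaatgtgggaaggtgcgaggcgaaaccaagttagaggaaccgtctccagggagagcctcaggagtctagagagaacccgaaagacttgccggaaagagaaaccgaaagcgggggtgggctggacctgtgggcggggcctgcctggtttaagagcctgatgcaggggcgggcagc
Socs3: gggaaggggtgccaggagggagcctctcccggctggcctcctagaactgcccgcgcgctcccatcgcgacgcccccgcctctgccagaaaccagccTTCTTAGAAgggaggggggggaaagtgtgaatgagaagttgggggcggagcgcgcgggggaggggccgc
Socs3 held TTCTTAGAA 154 to 146 bases before its start, and the second start of Pim1 held CACGTG 58 to 53 bases before. Neither motif was in the windows of Pim2, Pim3, Cish, Socs1 or the first start of Pim1. All 250 bases of the Cish window lie in annotated Cish exons, so no sequence outside an exon was searched for Cish. A match is a description and not a binding site, and no match says only that these letters are not in this window.

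Of the feedback inhibitors, Cish, the brake on IL-15 signaling, was not called. It ran from 0.885 (11 counts, RMA-KR day 2 replicate 3) to 53.2 (RMA-KR day 7 replicate 4), and from 8.81 without that lowest library. Control libraries read 16.8, 29.2, 39.6 and 22.1. RMA libraries read 11.1, 17.0 and 23.4 at day 2, 42.3, 38.6 and 43.2 at day 4, and 13.2, 25.8 and 22.9 at day 9. The day 4 libraries stood above those of day 2 and day 9, and overlapped control. RMA-KR libraries read 10.3, 13.9 and 0.885 at day 2, 8.81, 16.4, 32.3, 53.2 and 35.1 at day 7, and 20.3, 18.1 and 17.6 at day 14. All 3 RMA-KR day 2 libraries were below the lowest control. The group means ran from RMA-KR day 2 (8.37 ± 6.73) through RMA day 2 (17.2), RMA-KR day 14 (18.7), RMA day 9 (20.6), control (26.9 ± 9.87) and RMA-KR day 7 (29.2) to RMA day 4 (41.4 ± 2.41), with overlap between all neighbours. Against control the log2 fold change of Cish at RMA-KR day 2 was -1.69 (SE 0.63, edgeR adjusted p = 0.462), and -1.15 without RMA-KR day 2 replicate 3. In RMA-KR day 7 the 3 libraries low in immediate early genes held the 3 highest Cish values. Cish shares 7.46% of its exon bases with the antisense gene Gm17041 and 4.07% with the pseudogene Gm17040 on the opposite strand.

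Socs1, which binds and blocks JAK kinases, stood higher in the RMA day 4, RMA day 9 and RMA-KR day 7 groups, without passing the test. Control libraries read 9.43, 24.02, 25.0 and 25.1, replicate 1 lying far below the other 3. RMA libraries read 23.6, 18.1 and 19.3 at day 2, 27.2, 36.0 and 40.9 at day 4, and 32.8, 32.8 and 31.8 at day 9. Those of day 4 and day 9 were all above the highest control. RMA-KR libraries read 17.6, 19.6 and 9.09 at day 2, 36.2, 22.6, 34.6, 32.2 and 42.2 at day 7, and 17.9, 20.5 and 18.3 at day 14. In order of mean, RMA-KR day 2 (15.4), RMA-KR day 14 (18.9), RMA day 2 (20.4) and control (20.9 ± 7.65) overlapped their neighbours, as did RMA day 9 (32.5), RMA-KR day 7 (33.6) and RMA day 4 (34.7). Control and RMA day 9 did not overlap. The log2 fold change against control was 0.73 at RMA day 4 (SE 0.34, edgeR adjusted p = 0.304), 0.63 at RMA day 9 (SE 0.34, edgeR adjusted p = 0.414) and 0.68 at RMA-KR day 7 (SE 0.31, edgeR adjusted p = 0.814). Without control replicate 1 the RMA values were 0.46 and 0.38.

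Socs3, which blocks signaling through gp130, read 140, 164, 108 and 54.3 in control and 54.3 to 182 over the 24 libraries. Its group means lay between 83.9 in RMA day 9 and 135 in RMA day 2, with 87.7 in RMA day 4, 90.5 in RMA-KR day 14, 92.1 in RMA-KR day 2, 97.3 in RMA-KR day 7 and 117 in control. All neighbours overlapped and Socs3 was not called in any comparison. Its r with the immediate early sum was 0.53 within the 20 libraries (rho 0.55), and the 4 low libraries read 54.3 to 85.4. Socs2, which acts on growth hormone signaling, was the least abundant of the 8, from 0.589 (6 counts, RMA-KR day 7 replicate 5) to 11.9. The means of Socs2 ran from 3.53 in control to 7.53 in RMA day 2, and all neighbours overlapped. Its largest log2 fold change against control was 1.09 at RMA day 2 (SE 0.80, edgeR adjusted p = 0.785), and it was not called in any comparison.

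Myc rose at RMA day 4 and RMA-KR day 14. The control libraries gave 57.5, 91.5, 75.0 and 63.0 normalized CPM. With RMA they gave 65.1, 111 and 77.2 at day 2, 144, 178 and 171 at day 4, and 132, 156 and 98.0 at day 9. All libraries of day 4 and day 9 were above the highest control. With RMA-KR they gave 128, 101 and 102 at day 2, 126, 138, 116, 119 and 74.2 at day 7, and 161, 153 and 158 at day 14. Every RMA-KR library but day 7 replicate 5 was above the highest control. The order of means was control (71.8 ± 15.1), RMA day 2 (84.5 ± 23.9), RMA-KR day 2 (111 ± 15.5), RMA-KR day 7 (115 ± 24.1), RMA day 9 (129 ± 29.1), RMA-KR day 14 (158 ± 3.76) and RMA day 4 (164 ± 18.1), and each overlapped the next.

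The log2 fold change of Myc against control was 1.20 at RMA day 4 (SE 0.22, 3 of 3 libraries above every control, edgeR adjusted p = 0.00415) and 1.13 at RMA-KR day 14 (SE 0.22, 3 of 3, edgeR adjusted p = 0.0102). Both calls were kept without any single library of the groups compared, with 1.07 to 1.32 and 1.04 to 1.26, and under all 9 other settings, among them the fit without the 4 low libraries (1.15 and 1.12). At RMA day 9 Myc had a log2 fold change of 0.84 (SE 0.22, edgeR adjusted p = 0.0387), below the fold change asked for, and without RMA day 9 replicate 3, the lowest, it was called (1.04, edgeR adjusted p = 0.0154). Without replicate 2 it was 0.71 (edgeR adjusted p = 0.309), and without the 4 low libraries 0.79 (edgeR adjusted p = 0.0896). At RMA-KR day 2 and day 7 it was 0.62 (SE 0.22, edgeR adjusted p = 0.425) and 0.67 (SE 0.20, edgeR adjusted p = 0.530).

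**Figure D3:**
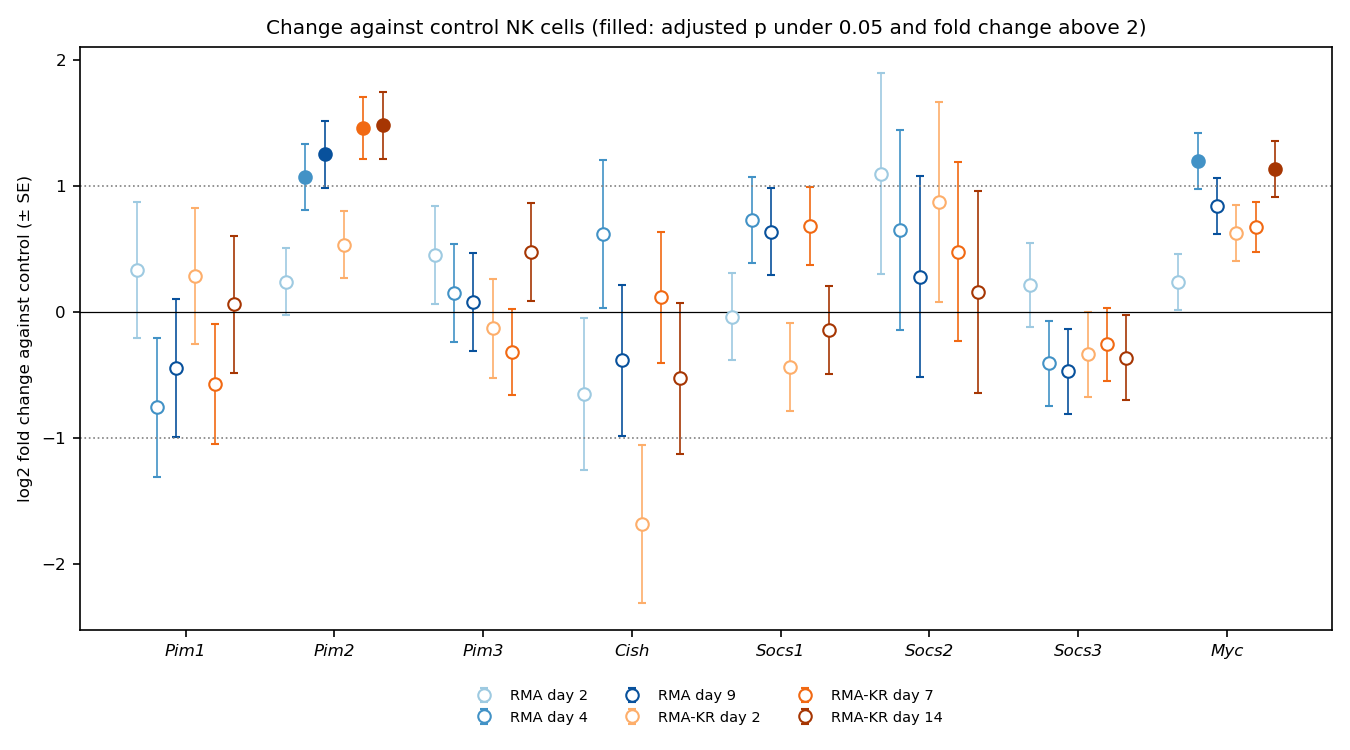
Log2 fold change against control (vertical) of the 8 genes in the 6 tumor groups, from the edgeR fit of all 24 libraries, with bars for the SE. Filled points passed both limits of the call, and the dotted lines mark a fold change of 2. The filled points are Pim2 at RMA day 4 and 9 and RMA-KR day 7 and 14 (1.07 to 1.48) and Myc at RMA day 4 and RMA-KR day 14 (1.20 and 1.13).

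Between the tumors at matched stages, edgeR called 0 of the 8 genes. At day 2, 0.304% of all genes were called and 12.8% did not overlap, and 0 of 8 members did either. RMA-KR day 7 against RMA day 4 had 0.503% called and 9.18% apart. There Myc was the 1 member apart (lower with RMA-KR, log2 fold change -0.52, SE 0.21, edgeR adjusted p = 0.342, and -0.31 without the 4 low libraries). RMA-KR day 14 against RMA day 9 had 0% called by edgeR (1249 genes at an unadjusted p under 0.05, and 43 and 10 called by DESeq2 with its defaults and with betaPrior=TRUE) and 9.13% apart. Socs1 was the 1 member apart there, at 17.9 to 20.5 against 31.8 to 32.8 (log2 fold change -0.78, SE 0.37, edgeR adjusted p = 0.655). At an unadjusted p under 0.05 the members numbered 0, 1 and 1 in these 3 comparisons, and both DESeq2 settings called 0. Pim2 differed by 0.39 and 0.23 on the log2 scale between the tumors at the later stages, in favor of RMA-KR.

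Within a tumor, edgeR again called 0 of 8 between the first and the last day, with 2 of 8 at an unadjusted p under 0.05 in each. For RMA day 9 against day 2, 2.01% of all genes were called and 19.1% did not overlap. There 3 of 8 members were apart, Pim2 and Socs1 higher and Pim1 lower. Pim2 had a log2 fold change of 1.01 (SE 0.29, edgeR adjusted p = 0.0565), which was called without RMA day 2 replicate 3 (1.21, edgeR adjusted p = 0.0348) and was 0.71 without RMA day 2 replicate 1 (edgeR adjusted p = 0.258), while both DESeq2 settings called 0 of 8. For RMA-KR day 14 against day 2, 0.322% were called and 15.5% were apart. There 3 of 8 members were apart, Pim2 (0.95, SE 0.29, edgeR adjusted p = 0.161), Myc (0.51, SE 0.24, edgeR adjusted p = 0.326) and Cish (1.16, SE 0.65, edgeR adjusted p = 0.384), all higher at day 14. Leaving out 1 library at a time, Cish ran from 0.66 without RMA-KR day 2 replicate 3 to 1.77 without replicate 2. The difference between the tumors in this early to late change was itself fitted, a contrast chosen after seeing the data. It was -0.07 for Pim2 (SE 0.40, edgeR adjusted p = 1.00) and -0.09 for Myc (SE 0.34, edgeR adjusted p = 0.992). For the other 6 it was 0.98 for Pim3 (SE 0.59), 0.89 for Cish (SE 0.90), 0.66 for Socs3 (SE 0.50), 0.55 for Pim1 (SE 0.82), 0.11 for Socs2 (SE 1.21) and -0.38 for Socs1 (SE 0.52), with edgeR adjusted p of 0.586 or more. In this contrast edgeR called 0 of 17097 genes, with 1777 at an unadjusted p under 0.05. DESeq2 was not run for that contrast.

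Levels of different genes were compared per kilobase, with all annotated exon bases of a gene merged as its length. In control NK cells the order was Socs3 (40.3 normalized CPM per kb), Pim3 (37.7), Pim2 (30.6), Pim1 (28.9), Myc (26.4), Socs1 (7.18), Cish (4.19) and Socs2 (0.371). The order depends on the length used, since the median transcript length in the deposited table gives 238 for Socs3, 80.6 for Pim1, 77.3 for Pim2, 62.1 for Pim3 and 40.02 for Myc. By merged exons, in RMA-KR day 14 Pim2 led at 85.4, followed by Myc at 58.0, Pim3 at 52.4, Socs3 at 31.3 and Pim1 at 30.0. In RMA day 9 Pim2 stood at 72.8 and Myc at 47.3.

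The share of variance of log2 levels that lay between the 7 groups was 77.4% for Pim2, 74.2% for Myc, 62.6% for Socs1 and 51.5% for Cish. It was 32.5% for Pim1, 27.2% for Pim3, 18.2% for Socs3 and 14.7% for Socs2. The genes most like each member by Pearson's r of log2 levels over the 24 libraries were listed as a description, without a test. For Pim2 they were Ugt1a7c (0.86), Limd2 (0.86) and Rps2 (0.83), and for Myc they were Nup93 (0.84), Coro1c (0.83) and Acot7 (0.82). Pim1 was nearest to Tnfaip3 (0.92), Sgk1 (0.91) and Ppp1r15a (0.91). Pim3 was nearest to Ccrl2, Ccl3 and Dusp6 (0.80 to 0.81), and Socs3 to Sertad2, Zfp36 and Gm15567 (0.69 to 0.78). Cish was nearest to Nop16, Gm7618 and Tfrc (0.83 for each), Socs1 to Nme2, Hspa9 and Nme1 (0.78 to 0.81), and Socs2 to Zbtb14, Gnb1l and Inf2 (0.72 to 0.74). Between members, Pim1 and Socs3 had r = 0.68 and Pim1 and Pim3 r = 0.67 (n = 24). Pim2 and Myc had r = 0.65, and 0.09 after each group's mean was taken out.

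Upstream of the 8 genes, 18 of 19 cytokine receptor chains were tested. By edgeR, Il12rb1, a chain of the IL-12 receptor, was the 1 gene called in the 11 comparisons, at RMA day 4 (log2 fold change 1.22, SE 0.32, edgeR adjusted p = 0.0385), and it lost the call without 5 of the 7 libraries in turn (edgeR adjusted p up to 0.178) and without the 4 low libraries (1.25, edgeR adjusted p = 0.0671). The list's median was -0.20 there, beside -0.29 over all genes. Over the 3 RMA-KR groups edgeR called 0 receptor chains against control. They reached an unadjusted p under 0.05 15 times, and DESeq2 called 2 with its defaults and 1 with betaPrior=TRUE. Over the 11 comparisons DESeq2 made 8 and 5 calls of receptor chains.

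Of 12 other inhibitors of cytokine signaling, edgeR called 1 in the 11 comparisons. The list reached an unadjusted p under 0.05 by edgeR 24 times, and each DESeq2 setting made 6 calls. Usp18, which shuts off the type I interferon receptor, rose by 3.01 at RMA day 4 (SE 0.40, edgeR adjusted p = 2.21e-04), by 2.96 at RMA day 9 (SE 0.40, edgeR adjusted p = 2.88e-04) and by 1.95 at RMA-KR day 14 (SE 0.39, edgeR adjusted p = 0.0121). The call at RMA-KR day 14 was lost without 4 of the 7 libraries in turn (edgeR adjusted p up to 0.0586) and without the 4 low libraries (1.90, edgeR adjusted p = 0.0506). Usp18 was also called lower in RMA-KR day 7 against RMA day 4 (-1.99, SE 0.37, edgeR adjusted p = 0.0076), kept without any single library, and higher in RMA day 9 against RMA day 2 (2.04, edgeR adjusted p = 0.0129), lost without 2 of the 6 libraries in turn. Of the 4 other SOCS family genes tested, edgeR called 0 in the 11 comparisons (4 times an unadjusted p under 0.05, 1 call by each DESeq2 setting), with list medians against control between -0.48 and -0.01.

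Among 14 other STAT5 targets, edgeR called Tnfrsf9, which encodes 4-1BB, and Gzmb, which encodes granzyme B. Over the 11 comparisons edgeR made 8 calls of this list, and DESeq2 made 11 with its defaults and 10 with betaPrior=TRUE. At RMA day 4 the 2 DESeq2 settings called 3 and 2. Tnfrsf9 had 192 normalized CPM in control and 812 in RMA day 4, a log2 fold change of 2.08 (SE 0.31, edgeR adjusted p = 5.36e-04). It was also called at RMA day 9 (1.85), RMA-KR day 7 (1.63) and RMA-KR day 14 (1.52). At RMA-KR day 7 the call of Tnfrsf9 was lost without 8 of the 9 libraries in turn (edgeR adjusted p up to 0.444) and without the 4 low libraries (1.31, edgeR adjusted p = 0.733), and at RMA-KR day 14 without control replicate 1 (1.41) or 2 (1.49) or RMA-KR day 14 replicate 2 (1.30). Gzmb rose at RMA day 4 (1.44, SE 0.30, edgeR adjusted p = 0.00834) and RMA day 9 (1.18, SE 0.30, edgeR adjusted p = 0.0293). It lost the first call without control replicate 1 (1.24, edgeR adjusted p = 0.0533) and the second without 5 of 7 libraries in turn (edgeR adjusted p up to 0.169) and without the 4 low libraries (0.97, edgeR adjusted p = 0.0635). Gzmb was also called lower in RMA-KR day 7 against RMA day 4 (-1.51, SE 0.28, edgeR adjusted p = 0.00771), a call kept without any single library and lost without the 4 low libraries (-1.17, edgeR adjusted p = 0.0973). Tnfrsf9 was also called in RMA day 9 against RMA day 2 (1.31, edgeR adjusted p = 0.0345), and lost that call without 3 of the 6 libraries in turn. The medians of the 14 were 0.21 and -0.04 at RMA day 4 and day 9, and 0.10 and -0.02 at RMA-KR day 7 and day 14.

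Downstream of Myc, 34 of 35 Myc target genes were higher than control at RMA day 4 and 34 of 35 at RMA-KR day 7, with medians of 0.70 and 0.63 beside -0.29 and 0.01 over all genes. At RMA day 9 and RMA-KR day 14, 25 and 20 of 35 were higher, with medians of 0.34 and 0.20 beside -0.18 for both over all genes. At day 2 the medians were 0.05 with RMA and -0.13 with RMA-KR. Against control, the targets called were 4 at RMA day 4 and 4 at RMA day 9 (Ranbp1, Ldha, Nme1 and Eif5a) and 1 at RMA-KR day 14 (Ldha). Ldha, which encodes a lactate dehydrogenase subunit, had log2 fold changes of 1.40, 1.57 and 1.11 (SE 0.18 each, edgeR adjusted p = 1.76e-04, 1.34e-04 and 0.00225), the last falling to 0.98 without RMA-KR day 14 replicate 2. The other 3 ran from 1.01 to 1.75, and each lost a call without at least 1 library, as did Ranbp1 at RMA day 4 without the 4 low libraries (1.40, edgeR adjusted p = 0.0616). In RMA day 9 against RMA day 2, Ranbp1 (1.79), Ldha (1.75) and Nme1 (1.26) were called higher (edgeR adjusted p = 0.00642, 8.43e-05 and 0.0448). Ldha was also called higher in RMA-KR day 14 against RMA-KR day 2 (1.00, edgeR adjusted p = 0.0269). At RMA-KR day 7 edgeR called 0 of the 35, with 13 at an unadjusted p under 0.05, and DESeq2 called 1 with its defaults and 0 with betaPrior=TRUE. Without the 4 low libraries 27 of 35 were higher there, with a median of 0.31 beside -0.14 over all genes, and at RMA day 4 it was 34 of 35 with a median of 0.74. Of the 10 Myc partners tested, among them Max and the Mxd genes, edgeR called 0 in the 11 comparisons (20 times an unadjusted p under 0.05, 4 and 3 calls by DESeq2 with its defaults and with betaPrior=TRUE). Their medians against control were between -0.21 and 0.16.

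Of 11 substrates of Pim kinases, Foxo3, a transcription factor held back by phosphorylation, fell by 1.21 on the log2 scale at RMA day 4 (SE 0.31, edgeR adjusted p = 0.0362). The call was lost without 6 of the 7 libraries in turn (edgeR adjusted p up to 0.196) and without the 4 low libraries (-1.16, edgeR adjusted p = 0.102). It was the 1 call by edgeR over the 11 comparisons. Both DESeq2 settings called 3 substrates at RMA day 4, and over the 11 comparisons they made 8 calls with defaults and 4 with betaPrior=TRUE. The list's median was 0.17, 0.14 and 0.53 at RMA day 2, 4 and 9, beside -0.06, -0.29 and -0.18 over all genes, and 0.52, 0.13 and 0.41 at RMA-KR day 2, 7 and 14, beside 0.00, 0.01 and -0.18. Without the 4 low libraries it was 0.38 at RMA-KR day 7.

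**Figure D4:**
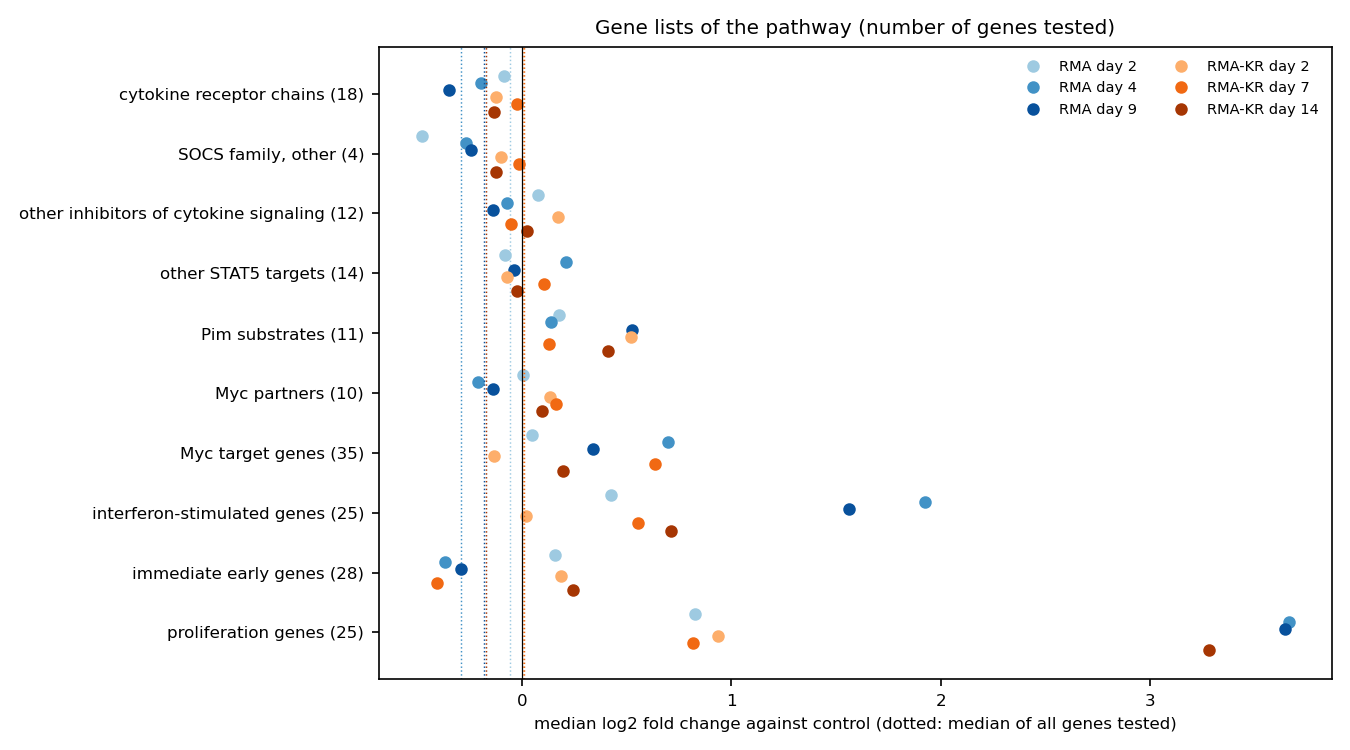
Median log2 fold change against control (horizontal) of 10 gene lists around the 8 genes, 1 point for each tumor group, with the number of genes tested in brackets. Dotted lines give the median of all genes tested in each comparison. The median of the 35 Myc target genes was 0.70 at RMA day 4 and 0.63 at RMA-KR day 7, and that of 25 proliferation genes was 3.66 and 0.82.

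Other programs moved beside Pim2 and Myc. Of 25 proliferation genes, edgeR called 23 higher at RMA day 4, 20 at RMA day 9 and 17 at RMA-KR day 14. The medians there were 3.66, 3.65 and 3.28, and 25, 25 and 24 genes had an unadjusted p under 0.05 by edgeR. DESeq2 called 25, 25 and 19 with its defaults and 25, 24 and 19 with betaPrior=TRUE. At RMA-KR day 7, where Pim2 was called and Myc was not, edgeR called 0 (6 at an unadjusted p under 0.05, 1 by each DESeq2 setting) and the median was 0.82, or 0.29 without the 4 low libraries. At day 2 the medians were 0.82 with RMA and 0.94 with RMA-KR. There edgeR and both DESeq2 settings called 0, with 7 at an unadjusted p under 0.05 for each tumor. The summed proliferation level was 1167 in control, 7345, 6181 and 4707 in those 3 groups and 2257 in RMA-KR day 7. Of 25 interferon-stimulated genes, edgeR called 7, 8 and 2 higher at RMA day 4, RMA day 9 and RMA-KR day 14, with medians of 1.92, 1.56 and 0.71. In those groups DESeq2 called 15, 12 and 3 with its defaults and 15, 10 and 3 with betaPrior=TRUE. At RMA-KR day 7 edgeR and both DESeq2 settings called 0, with 23 of 25 higher and a median of 0.55. Of 28 immediate early genes tested, Klf2 was lower at RMA day 9 (-1.15, SE 0.26, edgeR adjusted p = 0.0126) and Egr1 higher at RMA-KR day 14 (1.84, SE 0.38, edgeR adjusted p = 0.0151). Each lost its call without at least 1 library, Klf2 without control replicate 1 (-1.04) or RMA day 9 replicate 1 (-1.06) or 2 (-1.14), and Egr1 without control replicate 3 (1.65) or 4 (1.71) or RMA-KR day 14 replicate 3 (1.47). Egr1 also lost it without the 4 low libraries (1.77, edgeR adjusted p = 0.0656). In RMA day 9 against RMA day 2, Fosb (-2.76, SE 0.72, edgeR adjusted p = 0.0378) and Klf2 (-1.11, SE 0.27, edgeR adjusted p = 0.0265) were called lower, and each lost the call without 4 of the 6 libraries in turn. In RMA-KR day 7 against RMA day 4, 25 of 25 proliferation genes were lower (13 called, median -2.93) and 24 of 25 interferon-stimulated genes were lower (3 called, median -1.29), beside a median of 0.23 over all genes. Without the 4 low libraries 7 and 4 were called there, with medians of -2.98 and -1.77. Over the 24 libraries, r between log2 levels and the log2 proliferation sum was 0.63 for Pim2 and 0.72 for Myc, and the part of proliferation and interferon genes in their levels was not tested.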

How the data were processed

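NK cell RNA from 24 libraries was sequenced. Per the submitters' processing notes and the study's methods, the authors trimmed reads with cutadapt 1.10, discarded ribosomal reads with Bowtie2 2.2.8, aligned to mm10 with STAR 2.5.3a and counted reads per Ensembl gene with HTSeq 0.6.1p1, and they ran DESeq2 1.16.1. The deposited values used here are raw counts, as whole numbers for 45237 genes. The table has 112 columns. Another 48 columns, which hold the authors' normalized values of each library, and the columns of their own comparisons, which hold fold changes and p-values, were not used here.

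Counts were scaled by TMM, filtered with filterByExpr over the 7 groups and fitted together in edgeR 4.0.16 (R 4.3.3, limma 3.58.1) with robust quasi-likelihood tests, 11 comparisons, and Benjamini-Hochberg adjustment over 17097 genes. Log2 levels used a prior count of 2. The procedure was tested on simulated data, and no outcome of that test is reported or used here. Alternatives were DESeq2 size factors, DESeq2 1.42.0 with its defaults and with betaPrior=TRUE, no filter, at least 10 counts in every library, a replicate block, only the libraries compared, and leaving out each library. 2 more settings and the early to late contrast were chosen after seeing the data.

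Named genes were the 8 members, the 3 nearest genes of each, up to 4 called genes per list and comparison with the largest fold change, called genes of the receptor, inhibitor and SOCS lists, and the top gene of each marker list. Members and lists were chosen with earlier results of these data known. Replicates are separate samples by their labels, and p-values measure the spread between them. Results of the JAK and STAT list are not reported here.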

Additional observations from a re-analysis of the deposited data

Results flagged for a closer look

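For the 8 genes in the 2 groups of 4 or 5 libraries (control and RMA-KR day 7), 16 pairs of gene and group that share these libraries, the gap of the highest or lowest library to its nearest neighbour was set against the group's whole range, a measure that singles out about 1 in 20 pairs by chance. It singled out 2. Pim2 in RMA-KR day 7 replicate 5 was 358 normalized CPM, the other 4 libraries reading 180 to 227. Socs1 in control replicate 1 was 9.43, the other 3 reading 24.02 to 25.1.

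Socs1 also differed in side between the tumors at the last day. All 3 RMA day 9 libraries (31.8 to 32.8) were above the control mean of 20.9 and all 3 RMA-KR day 14 libraries (17.9 to 20.5) were below it, out of 24 pairs of gene and stage looked at. The direct comparison gave a log2 fold change of -0.78 (edgeR adjusted p = 0.655), so the difference did not pass the test.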

How the results depend on the processing

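No fold change of a member that was called or whose groups did not overlap changed direction under any setting run, 19 pairs of gene and comparison. Of the 69 other pairs, 24 changed sign under at least 1 setting, 20 of them on leaving out a library and 10 without the 4 libraries low in immediate early genes, all with a log2 fold change of at most 0.57 in size before. The number of members called stayed as reported in 151 of 175 repeats. At RMA day 4 it went from 2 to 1 with DESeq2 and betaPrior=TRUE, where Pim2 had a log2 fold change of 0.97, and ran from 1 to 2 over leaving out each library. At RMA day 9 it was 1, and ran from 0 to 2. At RMA-KR day 7 it went from 1 to 0 with only the libraries compared (Pim2 1.46, edgeR adjusted p = 0.245) and, in settings chosen after seeing the data, without the 4 libraries low in immediate early genes and with the immediate early sum as a covariate (1.32, edgeR adjusted p = 0.11), and ran from 0 to 1 over leaving out each library. For RMA day 9 against RMA day 2 it went from 0 to 1 with no filter (Pim2 1.04, edgeR adjusted p = 0.0288), and ran from 0 to 1. Over the 9 settings other than leaving out a library, the adjusted p of Pim2 ran from 0.00423 to 0.0314 at RMA day 4, from 5.69e-06 to 0.733 at RMA-KR day 7 and from 8.77e-06 to 0.0234 at RMA-KR day 14. The causes were not tested.

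Replicate numbers were shared between groups, but the libraries did not deviate together by number (median r -0.007 over 64 pairs, 3 above 0.1). With the replicate number as a replicate block, 0 members were called at RMA-KR day 7 (Pim2 1.28, edgeR adjusted p = 0.14) and 1 for RMA day 9 against RMA day 2 (Pim2 1.07, edgeR adjusted p = 0.0359), and no other count of members changed. The block left 0, 1 and 100 genes called at RMA-KR day 2, 7 and 14, 17 and 42 between the tumors at the first and middle stage, and 35 for RMA-KR day 14 against RMA-KR day 2.

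Over all genes, edgeR called 0, 282 and 306 at RMA day 2, 4 and 9, 14, 3 and 168 at RMA-KR day 2, 7 and 14, 52, 86 and 0 between the tumors by stage, and 344 and 55 between last and first day with RMA and RMA-KR. In the same order DESeq2 defaults called 62, 616, 594, 147, 30, 451, 300, 297, 43, 909 and 438, betaPrior=TRUE 19, 450, 472, 91, 15, 321, 181, 174, 10, 629 and 274, and no filter 88, 477, 472, 110, 56, 394, 188, 272, 28, 526 and 337. At least 10 counts in every library gave 79, 557 and 124 in the day 2 comparison of the tumors and the last-to-first comparisons. With only the libraries compared the counts were 762 and 573 at RMA day 4 and 9, 7 and 0 at RMA-KR day 2 and 7, and 0, 1 and 2 in the day 2 comparison of the tumors and the last-to-first comparisons. DESeq2 size factors gave 7 at RMA-KR day 2. Without the 4 low libraries the counts at RMA-KR day 2, 7 and 14 were 2, 0 and 84, and the covariate gave 0 at RMA-KR day 7 and 84 for RMA-KR day 14 against day 2. Leaving out each library gave 0 to 86, 166 to 226 and 127 to 457 at RMA day 2, 4 and 9, and 0 to 11, 0 to 4 and 71 to 152 at RMA-KR day 2, 7 and 14. It gave 8 to 192, 34 to 70 and 0 to 2 between the tumors, and 81 to 568 and 13 to 51 from first to last day. Of 34 calls of list genes, 22 to 34 were kept under each setting, and leaving out each library kept 156 of 234.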
